A study of Mus musculus with 20 samples.

Results

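The 10 genes described here are standard markers of blood vessel endothelium: Pecam1, Cdh5, Kdr, Tek, Emcn, Flt1, Tie1, Eng, Vwf and Robo4. They were chosen by symbol, and all 10 were found among the 51789 genes of the deposited table. RNA was sequenced from intervertebral discs of BL6 mice aged 24 months, separately from the soft centre, the nucleus pulposus (NP), and from the layered outer ring, the annulus fibrosus (AF). From 18 months of age and for 6 months the mice had received either DMSO (vehicle) or MDL-800 dissolved in DMSO, by weekly intraperitoneal injection, so that DMSO is common to all groups. The series title ties the treatment to SIRT6, a deacylase that acts on chromatin. Each tissue had 5 vehicle and 5 MDL-800 libraries, which makes 4 groups and 20 libraries. The labels call the material primary cells, while their protocol describes tissue dissected under a microscope and stabilised at once. A library is named here by its group and the number in its title, and whether a library is 1 mouse or a pool is not given in the sources used here.

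Endothelial cells line vessels and are held together by junction proteins, which include PECAM1 and VE-cadherin (Cdh5). They respond to VEGF through the receptor tyrosine kinases VEGFR2 (Kdr), the main signalling receptor, and VEGFR1 (Flt1), which binds VEGF tightly but signals weakly and is also made as a soluble decoy. The angiopoietin receptor TIE2 (Tek), its partner TIE1, the TGF-beta and BMP co-receptor endoglin (Eng), the sialomucin endomucin (Emcn), von Willebrand factor (Vwf) and the roundabout receptor ROBO4 complete the set. The disc is known as a largely avascular organ: vessels reach the outer annulus and the endplates, and the core has none in health. The comparison of NP with AF therefore sets the outer ring against the core, and the comparison of MDL-800 with vehicle asks whether the treatment moved the vessel genes in either tissue.

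Of the 10 genes, 9 were lower in NP than in AF, and Flt1 was higher. In all 20 libraries the highest NP value of each of those 9 genes lay under its lowest AF value, and the lowest NP value of Flt1 lay over its highest AF value. Flt1 and Kdr, receptors for the same ligand, thus went in opposite directions. Their promoters are shown as the pair this contrast turns on, together with those of Eng and Tek, both lower in NP. Each run holds the 250 bases before the RefSeq start in GRCm38.p6, on the strand of the gene, with every AGGAAG or CGGAAG on either strand in capitals. These are letters of the kind bound by ETS factors, a family with a known part in endothelial transcription.
Flt1, chr5:147726012-147726261, minus strand: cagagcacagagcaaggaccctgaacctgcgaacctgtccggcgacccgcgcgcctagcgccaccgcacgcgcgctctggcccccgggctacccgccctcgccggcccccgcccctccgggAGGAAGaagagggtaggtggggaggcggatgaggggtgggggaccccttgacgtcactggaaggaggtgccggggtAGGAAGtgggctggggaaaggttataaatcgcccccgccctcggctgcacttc
Kdr, chr5:75978456-75978705, minus strand: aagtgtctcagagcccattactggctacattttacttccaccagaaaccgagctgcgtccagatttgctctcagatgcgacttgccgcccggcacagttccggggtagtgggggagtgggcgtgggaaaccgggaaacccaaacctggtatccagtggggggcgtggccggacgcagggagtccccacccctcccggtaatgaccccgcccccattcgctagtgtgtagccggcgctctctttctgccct
Eng, chr2:32646345-32646594, plus strand: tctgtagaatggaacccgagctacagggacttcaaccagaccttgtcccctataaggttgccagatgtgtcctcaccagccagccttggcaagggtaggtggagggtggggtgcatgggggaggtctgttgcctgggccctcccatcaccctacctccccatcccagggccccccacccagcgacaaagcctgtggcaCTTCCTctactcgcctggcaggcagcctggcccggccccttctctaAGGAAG
Tek, chr4:94739039-94739288, plus strand: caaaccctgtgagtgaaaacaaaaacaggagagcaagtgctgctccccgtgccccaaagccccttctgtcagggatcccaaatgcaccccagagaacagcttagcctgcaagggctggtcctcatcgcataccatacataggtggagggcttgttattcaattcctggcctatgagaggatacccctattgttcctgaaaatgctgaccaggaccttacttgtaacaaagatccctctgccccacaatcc
Flt1 and Eng carried AGGAAG, and Kdr and Tek carried neither form. As Flt1 alone was higher in NP, a link between a match and the direction of the tissue difference could not be tested. Of the 10 genes, 7 had a promoter in the table, and 5 of these 7 held AGGAAG (Emcn, Eng, Flt1, Robo4 and Tie1), against 29.5% of 32851 mouse promoters of the same length. CGGAAG was present in 1 of 7 (Tie1), against 13.6%. The form ACGTG of the hypoxia response core (16.6% of promoters) and the GATA motif AGATAA (10.0%) were in 0 of 7. The other form of that core, GCGTG, was not counted. It occurs in the Kdr promoter shown and, on the other strand, in that of Flt1. AGGAAG and CGGAAG differ in their first base and cannot match at the same position, both strands were searched, and the motifs were chosen after the values had been seen.

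The deposited values are FPKM, fragments scaled to transcript length and to the size of the library, so that levels of different genes are compared per length. Depth was estimated from the steps between low values of 6791 single-exon genes and came to between 12.9 and 22.4 M fragments per library, where M is mega. Tests were run with limma on log2(FPKM divided by a library factor, plus 1), and adjusted p is Benjamini-Hochberg over 16383 genes. A gene is called at an adjusted p under 0.05. Nothing in the labels says that the libraries of a group are separate animals, so the p-values measure the spread between these libraries only. The tissue labels were checked on markers: in vehicle libraries 8 of 8 NP markers tested were higher in NP, and 7 of 8 AF markers were lower there. The summed FPKM of the NP markers ran from 23900 to 29850 in NP vehicle and from 2647 to 15630 in AF vehicle, so transcripts of NP markers were present in the AF libraries too, to unequal degrees.

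The tissue difference was broad. In vehicle libraries 55.7% of all genes tested were called, 21.8% higher and 33.9% lower in NP, and 10 of 10 endothelial genes were among them. With MDL-800 the share was 62.8% (25.6% higher, 37.2% lower), again with 10 of 10. Groups did not overlap for 41% of all genes in vehicle (15.1% higher and 25.9% lower in NP) and for 49.1% with MDL-800 (18.5% and 30.5%), and for 10 of 10 endothelial genes in each (1 higher, 9 lower). The balance of directions over all genes depends on the scaling: 3577 were higher and 5550 lower in vehicle as reported, 4976 and 4655 with an upper quartile factor, and 6310 and 4194 with quantile normalization, which moved the median of all genes from -0.08 to 0.19. The direction of the endothelial genes was the same under each of these scalings. All 10 genes passed the filter on low values, but 6 of them (Cdh5, Kdr, Tek, Emcn, Tie1 and Robo4) reached 1 FPKM in fewer than 5 NP libraries and passed through AF alone, so that they had to differ. The other 4 (Pecam1, Flt1, Eng and Vwf) passed in NP as well. In bulk tissue, fewer cells of a type and less RNA per cell cannot be told apart.

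**Figure D1:**
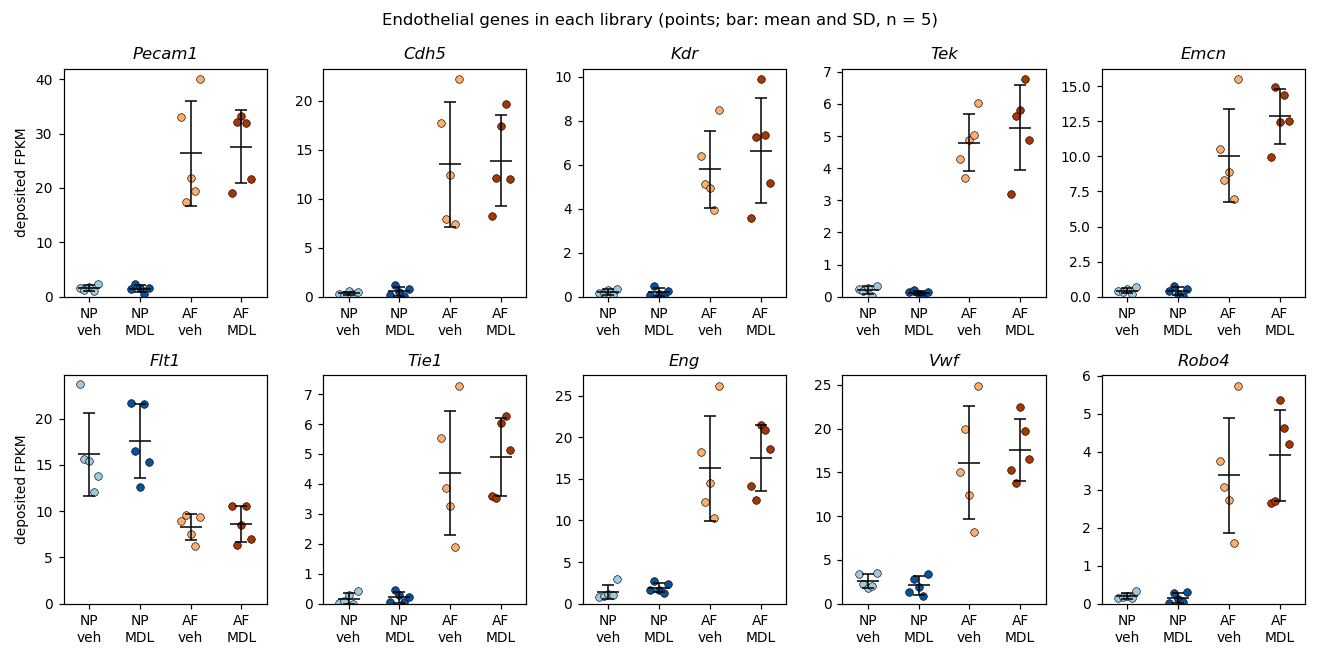
FPKM of each endothelial gene in each library (points), with the mean and SD of the 5 libraries of a group as bars, on linear axes that start at 0. In 9 panels the NP libraries sit near the bottom, under all AF libraries, and in the Flt1 panel they sit above, from 12.05 to 23.8 FPKM against 6.25 to 10.54 in AF.

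Flt1 (ENSMUSG00000029648, GRCm38 chr5:147561604-147726011, minus strand) was at 23.8, 15.62, 15.46, 12.05 and 13.79 FPKM in NP vehicle 1, 2, 3, 5 and 6. In AF vehicle 8, 9, 10, 12 and 13 it was at 8.96, 9.55, 7.56, 6.25 and 9.33 FPKM. The groups did not overlap, and NP vehicle 1 stood highest. With MDL-800 it was at 21.75, 16.51, 12.6, 21.55 and 15.31 FPKM in NP 15, 18, 19, 20 and 22. In AF MDL-800 25, 27, 28, 29 and 30 it was at 10.54, 6.37, 8.48, 10.52 and 6.98 FPKM, again without overlap. The means were 16.1 ± 4.52 FPKM in NP and 8.33 ± 1.40 in AF with vehicle (SD, n = 5), a ratio of 1.94. With MDL-800 they were 17.5 ± 4.01 and 8.58 ± 1.94 FPKM (SD, n = 5), a ratio of 2.05. The log2 difference was 0.92 in vehicle (SE 0.19, limma adjusted p = 0.002172) and 1.03 with MDL-800 (SE 0.18, adjusted p = 0.0005835). The level in NP rests on a fair number of fragments, estimated at 1088 to 3140 per library. No annotated gene overlaps Flt1, and a value per gene does not separate the membrane receptor from the soluble form.

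Kdr (ENSMUSG00000062960, chr5:75932827-75978458, minus strand) was near the limit of detection in NP. In NP vehicle it was at 0.17, 0.16, 0.31, 0.06 and 0.36 FPKM, and in NP MDL-800 at 0.1, 0.48, 0.14, 0.02 and 0.28 FPKM, in the same order of libraries as above. In AF it was at 6.41, 5.13, 4.97, 3.94 and 8.52 FPKM with vehicle and at 3.59, 7.26, 9.89, 7.34 and 5.17 FPKM with MDL-800. All NP libraries lay far under all AF libraries, and the NP values rest on an estimated 2 to 52 fragments each. The mean in NP was 3.66% of that in AF with vehicle and 3.07% with MDL-800. The log2 differences were -2.42 (SE 0.18, limma adjusted p = 5.198e-06) and -2.58 (SE 0.22, adjusted p = 4.894e-06).

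The ratio of Flt1 to Kdr within a library put the opposite directions into 1 value. Its median was 1.52 in AF vehicle (1.10 to 1.86) and 1.35 in AF MDL-800 (0.857 to 2.94). In NP vehicle the median was 97.6 (38.3 to 200.8) and in NP MDL-800 it was 90 (34.4 to 1078). The tissues did not overlap, and the highest ratio came from NP MDL-800 20, where Kdr was at 0.02 FPKM and the ratio has little precision. On the scale of log2(FPKM + 1), Flt1 minus Kdr was 3.79 ± 0.37 in NP vehicle and 0.48 ± 0.24 in AF vehicle (SD, n = 5), a difference of 3.31. With MDL-800 it was 3.93 ± 0.45 and 0.36 ± 0.62 (SD, n = 5), a difference of 3.57. The pair was chosen with its values known, so these values are a description without a test.

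**Figure D2:**
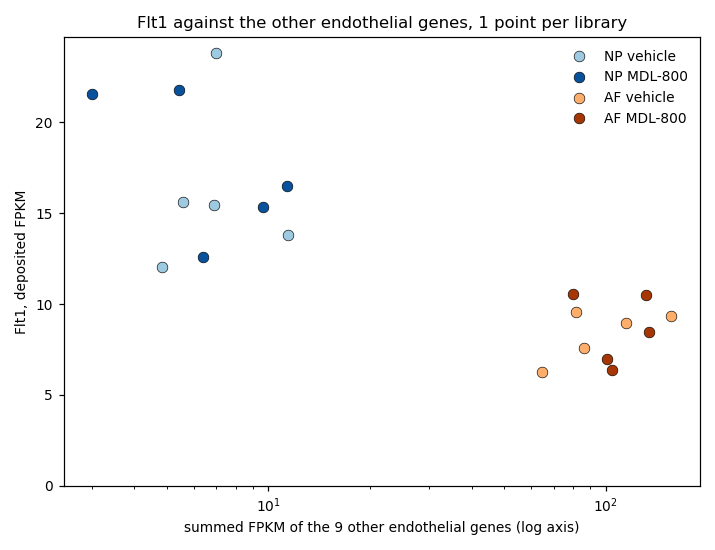
Flt1 in FPKM (vertical axis, from 0) against the summed FPKM of the 9 other endothelial genes (horizontal, log axis), with 1 point per library coloured by group. The NP libraries lie at the upper left, with sums of 3.01 to 11.44, and the AF libraries at the lower right, with sums of 64.8 to 156.2. NP MDL-800 20 has the lowest sum of all and one of the highest Flt1 values.

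The angiopoietin receptor pair was lower in NP as well. Tek (ENSMUSG00000006386, chr4:94739289-94874976, plus strand), which encodes TIE2, was at 0.23, 0.18, 0.28, 0.01 and 0.32 FPKM in NP vehicle and between 0.04 and 0.2 FPKM in NP MDL-800. In AF vehicle it was at 4.3, 3.68, 4.89, 5.04 and 6.04 FPKM, and in AF MDL-800 between 3.2 and 6.76 FPKM. The AF vehicle values were the most even of the 9 lower genes, with a coefficient of variation of 18.4%, and lay far from those of NP. The log2 difference was -2.22 in vehicle (SE 0.13, limma adjusted p = 3.976e-06) and -2.40 with MDL-800 (SE 0.16, adjusted p = 1.414e-06). Tie1 (ENSMUSG00000033191, chr4:118471191-118490061, minus strand), an orphan receptor that pairs with TIE2, was at 0.03, 0.1, 0.28, 0 and 0.42 FPKM in NP vehicle, the 0 being NP vehicle 5. In AF vehicle it was at 5.52, 3.86, 3.26, 1.89 and 7.26 FPKM. AF vehicle 12 was the lowest of these and still more than any NP library, where the highest was 0.47 FPKM in NP MDL-800 18. Its log2 difference was -2.09 in vehicle (SE 0.26, adjusted p = 7.57e-05) and -2.22 with MDL-800 (SE 0.17, adjusted p = 2.72e-06).

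The junction proteins had the widest gap in vehicle libraries on the log2(value + 1) scale, though with 0.1 added instead Pecam1 (-3.87) fell behind Kdr, Emcn, Tie1 and Tek. Pecam1 (ENSMUSG00000020717, chr11:106654217-106750628, minus strand), an adhesion protein that platelets and leukocytes also carry, was at 1.54, 1.22, 1.81, 1.07 and 2.36 FPKM in NP vehicle. In AF vehicle it was at 33, 17.39, 21.91, 19.51 and 39.98 FPKM. AF vehicle 8 and 13 were high and the other 3 lay close together, all above NP. With MDL-800 it was at 1.5, 2.36, 1.55, 0.56 and 1.58 FPKM in NP and at 19.06, 32.12, 33.26, 31.98 and 21.57 FPKM in AF. The log2 difference was -3.29 in vehicle (SE 0.24, limma adjusted p = 4.981e-06) and -3.45 with MDL-800 (SE 0.23, adjusted p = 1.37e-06). Cdh5 (ENSMUSG00000031871, chr8:104101625-104144511, plus strand), which encodes VE-cadherin, the adhesion protein of endothelial adherens junctions, was at 0.28, 0.15, 0.54, 0.24 and 0.51 FPKM in NP vehicle. In AF vehicle it was at 17.7, 7.91, 12.4, 7.42 and 22.2 FPKM. It varied widely within AF, with the same libraries high as for Pecam1, and the NP mean was 2.54% of the AF mean, the lowest share of the 10 genes in vehicle. With MDL-800 it was at 0.17, 1.21, 0.53, 0.05 and 0.81 FPKM in NP and at 8.25, 12.09, 17.49, 19.68 and 12.03 FPKM in AF, an NP share of 3.98%. The log2 difference was -3.29 in vehicle (SE 0.28, adjusted p = 9.492e-06) and -3.20 with MDL-800 (SE 0.26, adjusted p = 3.791e-06).

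Eng and Vwf had the largest shares of their AF level in NP among the 9. Eng (ENSMUSG00000026814, chr2:32646595-32682669, plus strand), the co-receptor endoglin, was at 0.81, 0.97, 1.14, 1.04 and 2.94 FPKM in NP vehicle and at 1.62, 2.74, 1.63, 1.32 and 2.32 FPKM in NP MDL-800. In AF it was at 18.26, 12.21, 14.45, 10.24 and 26.14 FPKM with vehicle and at 14.18, 12.5, 21.42, 20.88 and 18.54 FPKM with MDL-800. NP vehicle 6 stood apart from its group, and the tissues did not overlap. The NP mean was 8.49% of the AF mean with vehicle and 11% with MDL-800, with log2 differences of -2.80 (SE 0.27, limma adjusted p = 1.826e-05) and -2.59 (SE 0.18, adjusted p = 1.913e-06). Vwf (ENSMUSG00000001930, chr6:125546774-125686679, plus strand), the multimeric clotting protein that endothelium and megakaryocytes store, was at 3.39, 2.3, 1.77, 2.06 and 3.46 FPKM in NP vehicle. In AF vehicle it was at 15.09, 19.94, 12.45, 8.21 and 24.88 FPKM. With MDL-800 it was at 1.37, 2.87, 1.88, 0.89 and 3.41 FPKM in NP and at 15.24, 13.83, 22.51, 19.77 and 16.54 FPKM in AF. Its shares, 16.1% with vehicle and 11.9% with MDL-800, were the largest of the 9 genes. The log2 differences were -2.13 (SE 0.27, adjusted p = 8.218e-05) and -2.57 (SE 0.24, adjusted p = 7.076e-06).

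Emcn and Robo4 were also lower in NP without overlap. Emcn (ENSMUSG00000054690, chr3:137341067-137432185, plus strand), a surface sialomucin of capillaries and veins, ran from 0.2 to 0.73 FPKM in NP vehicle and from 6.95 to 15.48 in AF vehicle, and from 0.04 to 0.74 and 9.98 to 14.94 with MDL-800. The log2 differences were -2.86 (SE 0.20, limma adjusted p = 4.061e-06) and -3.28 (SE 0.16, adjusted p = 7.114e-07). Robo4 (ENSMUSG00000032125, chr9:37401897-37415115, plus strand), a receptor that steadies the vessel barrier, ran from 0.14 to 0.34 FPKM in NP vehicle and from 1.6 to 5.72 in AF vehicle, and from 0.03 to 0.31 and 2.64 to 5.37 with MDL-800. The log2 differences were -1.76 (SE 0.22, adjusted p = 7.273e-05) and -2.01 (SE 0.18, adjusted p = 5.347e-06). Robo4 had the smallest difference of the 9 on this scale, where a value of 1 is added before the logarithm, which compresses the difference of low genes. With 0.1 added instead, the vehicle differences of Kdr, Tek, Tie1 and Robo4 were -4.23, -4.06, -4.15 and -3.38.

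**Figure D3:**
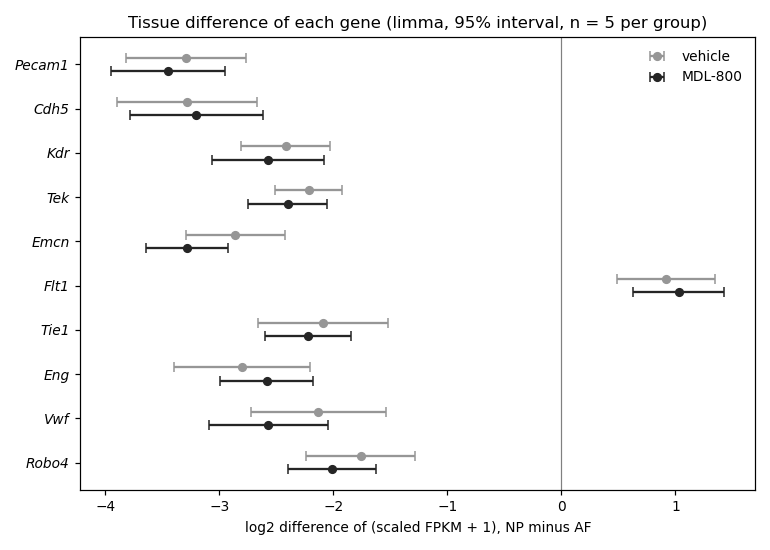
Log2 difference between NP and AF of each endothelial gene (points) with its 95% interval, in vehicle and in MDL-800 libraries, 5 per group. The 9 lower genes lie between -1.76 and -3.45, and Flt1 lies on the other side of 0, at 0.92 and 1.03.

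The order of levels differed between the tissues. In NP vehicle Flt1 was highest, at 16.1 FPKM, and did not overlap with Vwf, the next at 2.60. Vwf, Pecam1 (1.60) and Eng (1.38) overlapped one another in sequence. Eng did not overlap with Emcn (0.438), and from there on Cdh5, Kdr, Tek, Robo4 and Tie1 each overlapped with their neighbour. In AF vehicle Pecam1 led at 26.4 FPKM, followed by Eng (16.3), Vwf (16.1), Cdh5 (13.5), Emcn (10.0), Flt1 (8.33), Kdr (5.79), Tek (4.79), Tie1 (4.36) and Robo4 (3.37), and every neighbouring pair overlapped. Flt1 went from 6th in AF to 1st in NP in both treatments. It made up 54.7% to 77.3% of the summed FPKM of the 10 genes in NP vehicle and 5.6% to 10.5% in AF vehicle.

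Within a group, the 9 genes other than Flt1 tended to be high in the same libraries. AF vehicle 13 was the highest of its group for 9 of 9 and AF vehicle 12 the lowest for 7 of 9. NP vehicle 6 was highest for 8 of 9, NP MDL-800 18 for 7 of 9, and NP MDL-800 20 was lowest for 8 of 9. With the group means removed, each of the 9 correlated with the mean of the others at r = 0.595 (Tek) to 0.951 (Cdh5) over the 10 AF libraries, and at 0.722 (Vwf) to 0.966 (Kdr) over the 10 NP libraries. For Flt1 r was 0.366 in AF and -0.236 in NP. Without the 2 farthest libraries, the 9 genes ran from 0.419 (Vwf) to 0.929 (Cdh5) in AF and from 0.631 (Vwf) to 0.956 (Kdr) in NP, and Flt1 was at 0.086 and -0.163. These correlations are descriptions, since the points share each library's dissection and scaling.

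Other genes of vessels were read from lists chosen with earlier results known. Over all genes tested in vehicle libraries, 33.9% were called lower in NP and 21.8% higher. Genes of the lists that passed the filter on low values through AF alone had to differ. Among those listed, 9 of 18 other endothelial genes and 4 of 12 transcription factors stayed under 1 FPKM in every NP vehicle library. Of 18 other endothelial genes, 16 were lower in NP in vehicle libraries, 1 was higher and 1 was not called, with a median log2 difference of -2.12 against -0.08 for all genes. Cd34, a sialomucin of endothelium and progenitors, was at 2.59 ± 0.648 FPKM in NP and 65.9 ± 23.8 in AF (SD, n = 5; log2 difference -4.11, limma adjusted p = 3.976e-06). Adgrl4, an adhesion receptor of endothelium, was at 0.404 and 11.3 FPKM (-3.04, adjusted p = 3.976e-06). The gene that was higher in NP was Tspan7, a tetraspanin, at 78.7 ± 6.12 against 30.3 ± 11.9 FPKM (SD, n = 5; 1.48, adjusted p = 0.0001398). The apelin receptor Aplnr was not called, at 6.77 against 4.75 FPKM, but was called higher with quantile normalization (0.83, adjusted p = 0.03309). Of 11 endothelial transcription factors tested, 8 were lower and 3 were not called (median -1.99). Erg, an ETS factor of endothelium, was at 0.608 and 15.1 FPKM (-3.26, adjusted p = 8.195e-06) and Ets1 at 6.21 and 29.0 (-1.99, adjusted p = 1.168e-05). Klf2, a factor induced by flow, was at 46.6 ± 22.8 and 32.5 ± 16.9 FPKM (SD, n = 5) and was not called.

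Genes typical of arteries and lymph vessels were mostly lower in the core, while those of veins were lower only in part. Of those listed, 6 of 7 arterial and 3 of 5 lymphatic genes stayed under 1 FPKM in every NP vehicle library, so the filter limit given above applies to them. Of 6 arterial genes tested, 5 were lower and 1 was not called (median -1.09): Efnb2, the arterial ephrin, was at 0.222 and 3.21 FPKM in NP and AF vehicle, and the kinase gene Bmx at 0.42 and 4.35. With quantile normalization 2 of the 6 were called. Of 4 venous genes, 2 were lower and 2 were not called (median -0.97). The lower ones were Ackr1, a chemokine scavenger of venules and red cells (0.76 and 14.5 FPKM), and Selp, P-selectin (0.566 and 5.84 FPKM). Nr2f2 (22.8 and 19.2 FPKM) and Ephb4 (11.3 and 10.6) were not called, though both were called higher with quantile normalization (adjusted p = 0.0153 and 0.04759), and Nr2f2 also with an upper quartile factor (0.01837). Of 4 lymphatic genes tested, 3 were lower and 1 higher (median -2.24). Lyve1, a hyaluronan receptor, was at 0.492 and 30.6 FPKM and Mmrn1 at 0.936 and 12.2, and Reln was at 29.1 ± 13.7 against 13.9 ± 9.64 FPKM (SD, n = 5; 1.14, limma adjusted p = 0.03873; 0.05917 with no library factor).

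The ligands of the endothelial receptors went both ways, also within the VEGF family. Of 10 tested, 4 were higher in NP in vehicle libraries, 5 were lower and 1 was not called (median -0.58). Over all genes tested, 21.8% were higher and 33.9% lower. Vegfa, the ligand of both VEGF receptors, was at 188.1 ± 27.2 FPKM in NP and 54.7 ± 29.4 in AF (SD, n = 5; 1.96, SE 0.28, limma adjusted p = 0.0001925), and Slit2, a roundabout ligand, at 147.1 ± 28.9 and 31.8 ± 16.2 (SD, n = 5; 2.34, SE 0.28, adjusted p = 6.301e-05). The core thus had more RNA of Vegfa and of Flt1, and less of Kdr. Angpt1, which activates TIE2, was at 0.492 and 6.85 FPKM (-2.36, adjusted p = 3.976e-06), and Vegfc, the lymphatic growth factor, at 0.09 and 1.98 (-1.41, adjusted p = 9.928e-06). The remaining ligands are named here after their values were seen: Vegfb, which binds VEGFR1 and not VEGFR2, and Slit3 were higher (0.73 and 1.46). Vegfd, Angpt2 and Angpt4 were lower (-0.60, -1.30 and -2.08), of which Vegfd was not called with an upper quartile factor (adjusted p = 0.1039) or quantile normalization (0.7377). Pgf, the other ligand restricted to VEGFR1, was not called (-0.57, adjusted p = 0.06536; 0.04792 with no library factor). Gdf2 and Bmp10, ligands of the endoglin complex, did not pass the filter and reached no more than 0.02 FPKM in any library.

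In vehicle libraries, 33.9% of all genes tested were called lower in NP and 21.8% higher. Among co-receptors and partners, 4 of 10 were lower, 2 higher and 4 not called (median -0.14), near the shares over all genes. This balance depended on the scaling, with 3 lower and 3 higher with an upper quartile factor and 4 and 4 with quantile normalization. The neuropilins went opposite ways: Nrp1, which pairs with VEGFR2, was at 0.55 ± 0.394 FPKM in NP and 18.4 ± 6.10 in AF (SD, n = 5; -3.57, limma adjusted p = 4.061e-06), and Nrp2 at 78.0 ± 15.5 and 37.3 ± 1.84 (SD, n = 5; 1.09, adjusted p = 0.0001159). Acvrl1, the BMP receptor that works with endoglin, was at 0.492 and 11.0 FPKM (-2.94, adjusted p = 1.382e-05), and Ctnnd1, a catenin that binds VE-cadherin, at 64.0 and 45.5 (0.55, adjusted p = 0.0003658). Of 9 inhibitors of vessel growth, 7 were lower in NP, 1 was higher and 1 was not called (median -3.29). Serpinf1, which encodes PEDF, was at 6.76 ± 4.34 against 341.2 ± 111.7 FPKM (SD, n = 5; -5.53, adjusted p = 6.386e-06) and Sema3a at 0.038 against 5.41 (-2.57, adjusted p = 3.976e-06). Timp3, an inhibitor of metalloproteinases, was the higher one, at 560.0 ± 47.0 and 409.3 ± 57.4 FPKM (SD, n = 5; 0.53, adjusted p = 0.006759). With MDL-800, 37.2% of all genes tested were called lower in NP and 25.6% higher. The same lists then gave 16 lower and 2 higher of 18 other endothelial genes, and 8 and 1 of 11 transcription factors. They gave 5 and 0 of 6 arterial, 2 and 2 of 4 venous and 3 and 1 of 4 lymphatic genes. For ligands it was 5 and 4 of 10, for co-receptors 4 and 2 of 10, and for inhibitors 7 and 1 of 9. The genes called higher in NP with MDL-800 and not in vehicle were Aplnr (0.56, limma adjusted p = 0.03036; 0.05828 with no library factor), Klf2 (1.24, adjusted p = 0.0002485), Nr2f2 (0.66, adjusted p = 0.005514) and Ephb4 (0.49, adjusted p = 0.007607). In the test of the difference between the tissue effects, none of these 4 was called, as for all genes. Among the ligands, Pgf was called lower with MDL-800 (-0.37, adjusted p = 0.04397), though not with an upper quartile factor or quantile normalization, and Vegfd was not called (-0.52, adjusted p = 0.07888).

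**Figure D4:**
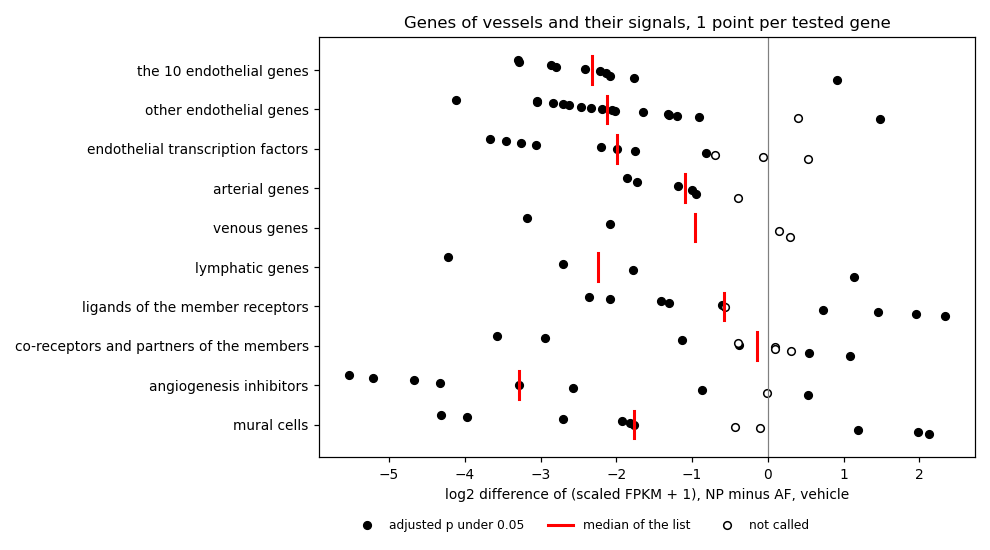
Log2 difference between NP and AF in vehicle libraries for each tested gene of the endothelial set and of related lists (points, filled where called), with the median of each list as a red bar. The first row shows 9 genes on the left and Flt1 alone on the right, and the ligand row is split, with 4 called genes on the right and 5 on the left.

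Markers of other cells moved with the 9 lower genes. The summed FPKM of the 9 genes in NP was 7.1% of that in AF with vehicle and 6.5% with MDL-800. Red blood cell markers stood at 7% and 5.61%, macrophage markers at 8.37% and 7.77%, neutrophil markers at 8.77% and 5.37%, megakaryocyte and platelet markers at 9.92% and 4.54%, and fat markers at 2.99% and 2.67%. All genes tested of these lists were lower in NP in vehicle libraries: 7 of 7, 8 of 8, 8 of 8, 8 of 8 and 5 of 5. So were 7 of 7 bone, 8 of 8 skeletal muscle and 6 of 6 nerve markers, where 33.9% of all genes were lower. Groups did not overlap for 6 of 7, 1 of 8 and 6 of 6 of these, against 41% of all genes. The muscle sum of NP vehicle 3 (1238 FPKM) lay over that of AF vehicle 8 (954.9 FPKM). Over the 10 NP libraries, with group means removed, the 9 genes ran with the summed markers of fat (r = 0.906), red blood cells (0.883), macrophages (0.808), neutrophils (0.736) and nerve (0.705). Flt1 did not run with these (-0.286, -0.081, -0.087, -0.05 and -0.241). For megakaryocytes and platelets, bone and skeletal muscle, r was lower, at 0.65, 0.512 and 0.358 (Flt1 -0.06, -0.676 and -0.189). Over the 10 AF libraries, r between the 9 genes and these lists, in the same order, was 0.382, 0.008, 0.389, 0.341, -0.22, 0.47, 0.582 and -0.181. There they ran with the arterial genes (0.862) and against the NP markers (-0.659), where the NP libraries gave 0.587 and -0.348. With the list of other endothelial genes r was lower, at 0.572 in AF and 0.184 in NP. It was 0.663 and 0.32 for the transcription factors, 0.517 and -0.224 for venous genes, and 0.251 and -0.251 for lymphatic genes. The part of tissue carried over in dissection, or of blood, in the level of the 9 genes was not tested.

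Markers of cells other than endothelium were also read beside Flt1. Macrophages are known to make Flt1 too. The macrophage sum ran from 66.4 to 391.5 FPKM in NP vehicle and from 1431 to 2767 in AF vehicle. Of 11 mural cell markers (pericytes and smooth muscle), 6 were lower in NP vehicle and 3 were higher, with a median of -1.77. Over all genes tested, 33.9% were lower and 21.8% higher. The summed FPKM of the mural list in NP was 198% of that in AF with vehicle and 169% with MDL-800. The pericyte marker Rgs5, named after its value was seen, was at 0.852 ± 0.853 against 36.2 ± 11.7 FPKM in vehicle (SD, n = 5; -4.31, limma adjusted p = 5.594e-06). Cspg4 of the same list, named after its values were seen, had a vehicle difference of 0.08 with an upper quartile factor (limma adjusted p = 0.802). With quantile normalization it was 0.05 (adjusted p = 0.8902). The 3 higher mural markers, also named after their values were seen, were the contractile genes Acta2 (646.4 ± 206.5 against 173.1 ± 125.1 FPKM; SD, n = 5), Tagln and Myh11. NP markers were higher in NP. With group means removed, Flt1 ran against their sum over the 10 NP libraries (r = -0.614), while r over the 10 AF libraries was 0.092. For bone markers r was -0.676 in NP and 0.296 in AF. The r of Flt1 with each library's slope of log2 values on GC content was -0.579 in NP and 0.789 in AF. Which cells held the Flt1 transcripts was not tested, since the libraries are bulk tissue.

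No endothelial gene was called between MDL-800 and vehicle. In NP, 0 of 10 were called against 0.25% of all genes (41 genes), and 0 of 10 had an unadjusted p under 0.05 in limma against 14.1% of all genes. In AF, 0 of 10 were called against 0% of all genes, and 0 of 10 had an unadjusted p under 0.05 against 1.65%. The vehicle and MDL-800 libraries overlapped for each of the 10 genes in both tissues, where 4.5% of all genes did not overlap in NP and 0.226% in AF. These comparisons share libraries with those between tissues. Flt1 differed by 0.14 in NP (95% interval -0.32 to 0.59, limma adjusted p = 0.8252) and by 0.03 in AF (-0.35 to 0.40, adjusted p = 1). The largest difference in NP was that of Eng, 0.36 (-0.12 to 0.83, adjusted p = 0.4986), and in AF that of Emcn, 0.36 (-0.07 to 0.79, adjusted p = 1). The widest interval was that of Cdh5 in AF, from -0.62 to 0.81, so that changes of that size could not be told from the spread. Kdr had intervals of -0.27 to 0.25 in NP and -0.41 to 0.70 in AF. Cdh5, Kdr, Tek, Emcn, Tie1 and Robo4 were low in NP, where the added 1 compresses any change. Their narrow NP intervals therefore do not exclude a change in ratio. With 0.1 added instead, the NP difference of Robo4 was -0.34 against -0.06, and that of Tie1 was 0.33 against 0.07, neither called.

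**Figure D5:**
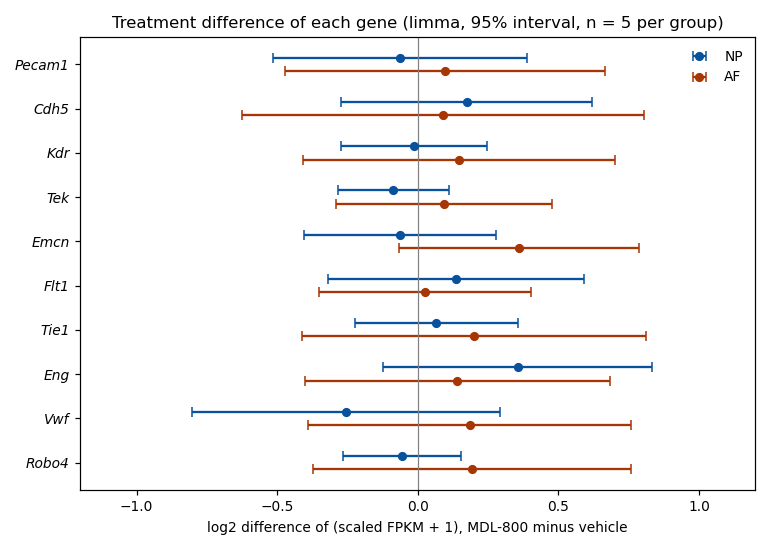
Log2 difference between MDL-800 and vehicle of each endothelial gene (points) with its 95% interval, in NP and in AF, 5 libraries per group. All 20 intervals include 0, and those of AF are wider than those of NP for each gene except Flt1.

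The tissue difference itself did not change detectably with treatment. In the test of the difference between the tissue effects, 0 of 10 genes were called against 0% of all genes, and 0 of 10 had an unadjusted p under 0.05 against 3.73%. Flt1 gave 0.11 (95% interval -0.47 to 0.69), Emcn -0.43 (-0.96 to 0.11) and Vwf -0.44 (-1.22 to 0.34), each with a limma adjusted p of 0.9997. Between treatments in NP, 14.1% of all genes had an unadjusted p under 0.05 in limma. Among the vessel lists it was 0 of 18 other endothelial genes, 1 of 11 transcription factors, 1 of 6 arterial, 1 of 4 venous and 0 of 4 lymphatic genes. For ligands it was 2 of 10 and for inhibitors 0 of 9. Of the partner genes, 3 of 10 had such a p, and 0 passed the adjustment. These were Unc5b, a partner of ROBO4 (4.93 ± 0.895 FPKM with vehicle and 8.77 ± 1.42 with MDL-800; SD, n = 5; limma adjusted p = 0.05629), Jup, a catenin of endothelial and other junctions (13.3 ± 2.51 and 21.8 ± 2.87; SD, n = 5; adjusted p = 0.0519), and Ctnnb1 (172.3 ± 15.0 and 144.2 ± 8.93; SD, n = 5; adjusted p = 0.1797). They were named after their values were seen, and vehicle and MDL-800 libraries did not overlap for these 3 of 10, against 4.5% of all genes. The slope of log2 values on GC content also separated the treatments in NP, at -0.29 to -0.01 per 10 GC points in vehicle and 0.02 to 0.09 with MDL-800, and its part in these differences was not tested. Vegfa was at 188.1 ± 27.2 and 246.6 ± 52.4 FPKM in NP (SD, n = 5; adjusted p = 0.2986).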

How the data were processed

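Total RNA was sequenced after ribosomal RNA depletion with a stranded kit, from 50 ng of RNA and 14 PCR cycles, per the labels' protocols. The authors deposited 1 table of FPKM values, with a column for each of the 20 libraries. STAR 2.7.11b and mm10 are named in the submitters' processing notes, and the program that made the FPKM values and the annotation are not given in the sources used here. Each column was matched to its sample by name, and 0 other columns of values were present.

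FPKM was divided by a library factor (0.933 to 1.062, each library's median ratio to a geometric mean profile, from the 11308 genes that reached 1 FPKM in every library). A gene was tested if 5 of the 20 libraries or more reached 1 FPKM (16383 genes). Two-sided tests used limma 3.58.1 (lmFit, then eBayes with a trend; R 4.3.3) on log2(value + 1), and each fit held the compared groups alone, which are all 4 for tissue by treatment. Between 81.0% and 85.5% of low values of single-exon genes lay within 0.2 of a whole read after depth was estimated, too few to recover counts. Fragments per gene are therefore approximate. Low values are listed to 2 decimals, so that a 0 is a listed 0. The fit was tested on simulated data.

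All 10 endothelial genes are named. From each vessel list, up to 4 genes are named, the 2 lowest p-values among genes higher in NP vehicle and the 2 among those lower, and any other gene is said to be chosen after its values were seen. The genes and lists were chosen with earlier results of these data known. Gene coordinates are from GENCODE M21 (GRCm38), and promoters are from RefSeq. Alternatives varied the scaling, pseudocount, filter, limma prior, groups in the fit and GC trend, and left out each library in turn. The block by header number, the fits without the highest libraries and the scalings of the lists were added after the data had been seen.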

Additional observations from a re-analysis of the deposited data

Results flagged for a closer look

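Eng in NP vehicle 6, at 2.94 FPKM, stood far above the other 4 libraries of its group (0.81 to 1.14 FPKM) by Dixon's ratio. It was the single outlying library in 40 groups of 5 tested, and chance gives about 1 in 20. In the same library 8 of the 9 endothelial genes other than Flt1 were the highest of their group, and the summed markers of macrophages (391.5 FPKM), neutrophils (3129 FPKM) and red blood cells (179.4 FPKM) were as well. Without it the log2 difference of Eng between NP and AF vehicle was -2.99, against -2.80 with it.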

How the results depend on the processing

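Between tissues, all 10 genes were called with the same direction in both treatments under every alternative and every omission of a library. Cdh5, Kdr, Tek, Emcn, Tie1 and Robo4 passed the filter through AF alone and had to differ, so their repeated calls add no support. The outcome informs on Pecam1, Flt1, Eng and Vwf only. For Flt1 the vehicle difference ran from 0.86 (no library factor) to 1.21 (quantile normalization), and from 0.76 to 1.02 when 1 library was left out. In vehicle libraries 8 of the 9 lower genes moved most with the pseudocount of 0.1, and Vwf with quantile normalization (-1.74). No endothelial gene was called between treatments, or for tissue by treatment, under any setting.

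Uncalled differences near 0 changed sign. In NP, MDL-800 minus vehicle with the GC trend removed was 0.0562 for Emcn, 0.0365 for Kdr, 0.0002 for Tek and -0.13 for Tie1, and leaving out 1 library gave -0.158 to 0.0344 for Emcn, -0.0946 to 0.0453 for Kdr, -0.186 to 0.0959 for Pecam1 and -0.0103 to 0.139 for Tie1. In AF, leaving out 1 library gave -0.0831 to 0.278 for Cdh5, -0.0032 to 0.310 for Eng, -0.0678 to 0.111 for Flt1, -0.0025 to 0.313 for Kdr, -0.031 to 0.249 for Pecam1, -0.0038 to 0.368 for Tie1 and -0.0229 to 0.345 for Vwf. For tissue by treatment, Tie1 was 0.0711 with a pseudocount of 0.1, and leaving out 1 library gave -0.302 to 0.0697 for Tie1 and -0.104 to 0.257 for Cdh5. The cause was not tested.

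The 41 genes called over the whole table in NP between treatments became 18 with no library factor, 7 with no filter, 21 with a filter at 0.1 FPKM, 18 with no trend and 4 with all groups in 1 fit, and ran from 2 (without NP vehicle 3 or NP MDL-800 22) to 189 (without NP vehicle 6). The counts of 0 in AF and for tissue by treatment became at most 1 when a library was left out. The numbers in the titles are not shared between groups and pair no libraries. The file header carries a further number that NP and AF share in 5 vehicle and 3 MDL-800 pairs. Same-numbered libraries did not all deviate together (r from -0.18 to 0.29), and with a replicate block by that number 10 of 10 genes were called in both treatments. Without the libraries highest in the 9 genes, 10 of 10 were also called. Both counts include the 6 genes that passed the filter through AF alone and had to differ.

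The low NP values of Kdr, Tek, Tie1, Robo4, Emcn and Cdh5 rest on an estimated 0 to 86 fragments, which limits their ratios.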

Other observations

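Outside all lists, the 5 genes with the pattern most like that of the endothelial genes over the 10 AF libraries were Sp7 (r = 0.961, rho 0.964), Adcy4 (0.957, rho 0.927), Pcdh12 (0.956, rho 0.976), Lamc3 (0.954, rho 0.964) and Ppp2r5d (0.953, rho 0.903), among 15241 genes searched. Likeness is the correlation with the mean standardised log2 value of the 10 genes, with the mean of each treatment group removed. Sp7, a transcription factor of osteoblasts, was at 10.4 ± 5.81 FPKM in AF vehicle and 0.34 ± 0.27 in NP vehicle (SD, n = 5). Pcdh12, a protocadherin of endothelium, was at 1.61 ± 0.73 and 0.06 ± 0.06 FPKM (SD, n = 5). Ppp2r5d, a phosphatase subunit, was at 19.9 ± 1.48 and 14.7 ± 1.67 FPKM (SD, n = 5). With so many genes searched over 10 libraries, these values are a description.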
